A study of Mus musculus with 50 samples.

Results

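Gene expression was compared between 10 mammary gland tumors from mice injected with X10 and 10 tumors from mice injected with vehicle, which together make up 20 of the 50 tumors sequenced. The tumors were assigned by their sample titles, in which the vehicle group is called Untreated. X10 (AspB10) is an insulin analogue with a raised affinity for the receptor for insulin-like growth factor 1 (IGF1R), and the question was which transcripts differed in tumors that arose under its chronic injection. The other 30 tumors came from mice injected with insulin, with glargine, a long-acting insulin analogue, or with IGF1, with 10 tumors each. All mice, vehicle mice included, were female and carried 1 copy of mutant p53 (R270H) and the WAPCre transgene, which drives Cre recombinase from a milk protein promoter in mammary epithelium. Injections were subcutaneous, started at 8 weeks of age and were given every other day until a tumor formed. Tumors were taken at 1 cm3 and 24 h after the last injection. The tumors sequenced were chosen by the study for a mesenchymal-like histology and for a latency near the median of their treatment group, so they do not sample all tumors that arose. Doses are not given in the sources used here.

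IGF1R and the insulin receptor are tyrosine kinases that signal through insulin receptor substrates to PI3K and AKT, and through RAS to ERK. Id3, one of the genes called here, is an inhibitor of DNA binding: it pairs with E proteins such as Tcf3, Tcf4 and Tcf12 and keeps them from DNA, and it is a direct target of bone morphogenetic protein (BMP) signaling through SMAD proteins. Replication-dependent histone genes such as those for H2A supply the histones that package newly copied DNA, and their transcripts normally end in a stem-loop in place of a poly(A) tail. Processed pseudogenes are copies of spliced transcripts that were written back into the genome, so reads of such a copy and of its parent gene can be hard to tell apart.

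The values are RPKM, reads scaled to gene length and library size, and differences are given as log2 fold changes, X10 minus vehicle, on the log2(RPKM + 0.5) scale, which understates the change of low genes. A gene was called when its adjusted p-value was under 0.05 in limma, a linear model that was fitted to all 50 tumors and 16733 genes. Such p-values measure the spread between tumors.

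Libraries stood apart before any gene was compared. Library size, recovered from the steps between low RPKM values, was 37.5 ± 6.68 M reads in the X10 group (SD, n = 10) and 44.3 ± 4.41 in the vehicle group (SD, n = 10; difference -6.85, two-sided permutation test p = 0.0166). It ranged from 29.6 to 49.6 in X10 tumors and from 37.4 to 49.9 in vehicle tumors, and 7 X10 libraries were below every vehicle library. Processed pseudogenes took 4.201 ± 0.974% of the summed RPKM in X10 tumors and 5.13 ± 0.627% in vehicle tumors (difference -0.931 percentage points, two-sided permutation test p = 0.0219). Both differences were known when this comparison was chosen, so their p-values are a description and no independent test. The permutations also take no account of the sample order described below. The X10 group fell into separate ranges by the sequence sample number in the labels. The 4 tumors numbered 21 to 24 had a pseudogene share of 4.62% to 5.76%, within the vehicle range of 4.42% to 6.12%, whereas the 6 tumors numbered 25 to 30 had 3.26% to 4.04%, below every vehicle tumor. The line between these sets was drawn after the shares were seen and is not a batch given by the labels, and the sets are called earlier and later by their numbers alone. With the 6 later tumors left out, the group differences were -2.46 M reads for library size and 0.102 percentage points for the share, given without a test because low values of the share chose the tumors left out. The same choice bears on the pseudogenes, whose values without these tumors are a description. The low shares did not end with the X10 group: the next pair of tumors, IGF1_124 and IGF1_128, numbered 31 and 32, had 2.50% and 2.99%, whereas the IGF1 tumors numbered 33 to 40 had 4.76% to 7.13%. Because the numbers run in treatment order, with the vehicle tumors numbered 41 to 50, X10 treatment and sample order cannot be told apart against vehicle, and the main results are therefore also given without the 6 later tumors. The tumor X10_105 was extreme for several genes, named where they occur.

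**Figure D1:**
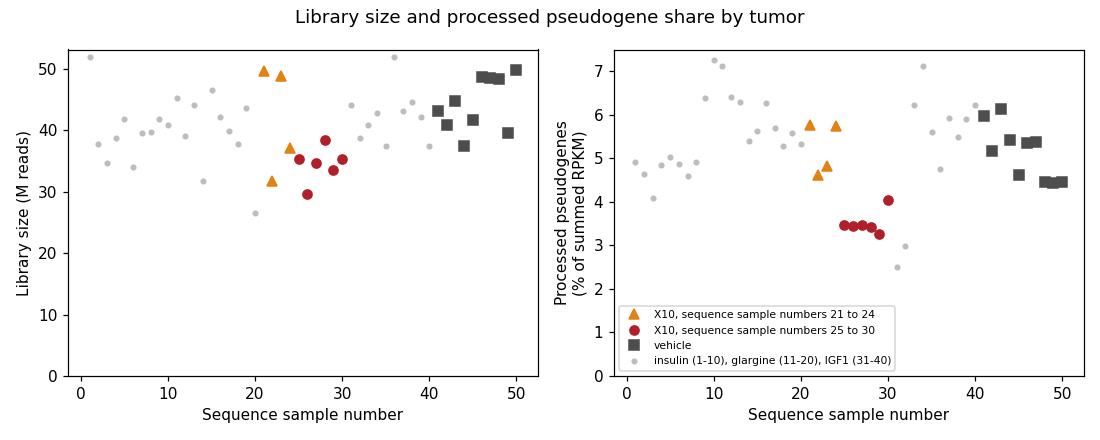
Library size in M reads (left) and the processed pseudogene share of the summed RPKM in percent (right), by sequence sample number, with 1 point per tumor. The X10 tumors numbered 25 to 30 lie at 3.26% to 4.04%, below the 10 vehicle tumors at 4.42% to 6.12%, while the X10 tumors numbered 21 to 24 lie within the vehicle range.

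Of the 16733 genes tested, 11 were called (0.0657%), and all 11 were lower in X10 tumors. They were the H2A genes Hist1h2ao and Hist1h2ap, Id3, Pprc1, a coactivator of the PGC-1 family that drives mitochondrial gene expression, and 7 copies of other genes. All 6 called genes annotated as processed pseudogenes (Gm5391, Gm8666, Gm13509, Gm7862, Gm10221 and Gm13517) and the gene Gm9803, annotated as protein coding, aligned to a coding gene elsewhere over at least 200 bases at 80% identity or more. Their sequences are shown first, since they decide how far reads of each gene can be assigned. All are written 5′ to 3′ in GRCm38.

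The coding sequences of Hist1h2ao (chr13:21810465-21810944, plus strand) and Hist1h2ap (chr13:21833026-21833507, minus strand) are both 393 bases long and have 0 mismatches, and the transcripts are identical over 452 aligned bases. The nearest other H2A gene, Hist1h2ai, is 99.22% identical over 386 bases, with 3 mismatches. The opening 100 coding bases are shown for the 3 genes, with capitals at bases that differ from Hist1h2ao.
Hist1h2ao: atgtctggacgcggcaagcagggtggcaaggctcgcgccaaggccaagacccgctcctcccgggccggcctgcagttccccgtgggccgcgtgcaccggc
Hist1h2ap: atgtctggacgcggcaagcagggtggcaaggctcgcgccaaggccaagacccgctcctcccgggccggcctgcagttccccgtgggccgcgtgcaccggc
Hist1h2ai: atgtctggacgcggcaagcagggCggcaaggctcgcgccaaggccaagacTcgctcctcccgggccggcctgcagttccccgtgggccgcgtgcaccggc

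The upstream sequences are also shared. The longest identical run in the RefSeq promoters of both called H2A genes is 200 bases long and ends 50 bases before the start codon in each, at chr13:21810217-21810416 (plus strand) for Hist1h2ao and chr13:21833526-21833725 (minus strand) for Hist1h2ap. Capitals mark CCAAT on either strand (ATTGG on the other), the letters of the CCAAT box. The run holds 3 matches. In their first 200 bases, 28.4% of the 32851 RefSeq promoters have at least 1 match and 1.63% have at least 3.
Shared run: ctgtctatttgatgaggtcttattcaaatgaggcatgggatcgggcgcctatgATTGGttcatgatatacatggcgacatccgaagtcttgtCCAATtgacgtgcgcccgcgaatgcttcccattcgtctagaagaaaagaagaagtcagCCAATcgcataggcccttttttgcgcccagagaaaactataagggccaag

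Gm7862 (chr12:76152336-76152627, minus strand) and Gm8666 (chrX:75475232-75475523, minus strand) are both copies of Hmgn1, which encodes a nucleosome-binding protein, and each is 97.94% identical to it over 292 bases. The same 100 bases are shown with capitals at bases that differ from Hmgn1, 4 in Gm7862 and 3 in Gm8666.
Gm7862: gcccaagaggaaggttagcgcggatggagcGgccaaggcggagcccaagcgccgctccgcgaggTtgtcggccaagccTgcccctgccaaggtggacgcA
Gm8666: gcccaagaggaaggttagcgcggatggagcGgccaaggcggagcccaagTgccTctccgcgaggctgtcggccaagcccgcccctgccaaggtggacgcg
Hmgn1: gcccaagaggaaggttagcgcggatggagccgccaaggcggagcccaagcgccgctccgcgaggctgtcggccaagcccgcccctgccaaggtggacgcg

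The copies differed in how far they have moved from their nearest coding gene. Gm5391 (chrX:68319638-68320250, minus strand) is 93.96% identical over 613 bases to Ranbp1, which encodes a regulator of the nuclear transport GTPase Ran, with 10 mismatches in the stretch shown, in capitals. Gm10221 (chr5:24581554-24581862, minus strand) is 100% identical over 309 bases to Atp5l, a subunit gene of the mitochondrial ATP synthase.
Gm5391: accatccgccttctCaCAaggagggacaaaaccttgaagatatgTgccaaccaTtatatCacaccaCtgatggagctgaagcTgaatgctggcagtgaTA
Ranbp1: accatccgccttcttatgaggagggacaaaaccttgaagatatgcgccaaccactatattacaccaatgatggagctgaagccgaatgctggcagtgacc
Gm10221: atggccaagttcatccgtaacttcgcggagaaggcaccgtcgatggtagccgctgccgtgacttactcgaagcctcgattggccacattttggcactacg
Atp5l: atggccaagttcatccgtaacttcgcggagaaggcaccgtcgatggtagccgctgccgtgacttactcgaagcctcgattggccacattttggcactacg

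Gm9803 (chr10:43524084-43524646, plus strand) was 100% identical over 534 bases to Pam16, a subunit gene of the mitochondrial protein import motor. Gm13509 (chr2:49308155-49309462, plus strand) was 99.69% identical over 1308 bases to Ap2m1, a subunit gene of the AP-2 clathrin adaptor. Gm13517 (chr2:55775548-55777042, plus strand) was 85.17% identical over 843 bases to Eif4g1, a scaffold of translation initiation. Id3 and Pprc1 aligned to no other coding gene at these limits.

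Hist1h2ao had the smallest p-value of all genes tested. It stood at 12.7, 4.71, 6.396, 12.9, 5.35, 11.6, 10.5, 6.98, 7.125 and 6.35 RPKM in X10_95, X10_100, X10_105, X10_107, X10_111, X10_113, X10_115, X10_116, X10_118 and X10_120. The vehicle tumors ranged from 12.65 to 38.0 RPKM with a median of 23.0. Only the 2 highest X10 tumors reached the lowest vehicle tumors, and the other 8 X10 tumors were below all of them. The mean was 8.46 ± 3.13 RPKM in X10 tumors and 23.5 ± 9.06 in vehicle tumors (SD, n = 10 each), or 2.64 times as high in the vehicle tumors on the log scale (log2 fold change -1.40, SE 0.23, limma adjusted p = 0.00419). In bulk tumors, fewer cells of a type that transcribes a gene and less RNA of it per cell cannot be told apart. The earlier X10 tumors, at 4.71 to 12.9 RPKM, and the later ones, at 5.35 to 11.6, covered the same range. Without the 6 later tumors the log2 fold change was -1.33 (unadjusted p = 0.000155, limma adjusted p = 0.649). Over 20 other settings the adjusted p ran from 0.00257 to 0.649, and the gene was called in 18.

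Hist1h2ap, its identical copy in coding sequence, ranged from 3.70 to 8.98 RPKM in X10 tumors (median 6.59) and from 7.59 to 29.5 in vehicle tumors (median 17.0). Of the vehicle tumors, 9 were above every X10 tumor. The log2 fold change was -1.23 (SE 0.24, limma adjusted p = 0.0215), and it was -1.23 without the 6 later tumors. Of the reads on the pair, Hist1h2ao held 53.8% in X10 tumors and 56.0% in vehicle tumors, so the pair moved together, and reads of the identical stretch cannot be assigned to either. With log2 library size as a covariate, Hist1h2ao was still called (adjusted p = 0.00912) and Hist1h2ap was not (adjusted p = 0.0855, 0.0111 to 0.701 over 20 other settings). Over those settings the log2 fold change of Hist1h2ap stayed between -1.30 and -0.97.

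Among the 67 replication-dependent histone genes in the table, 28 were expressed enough to be tested. Besides the 2 called, 22 of the tested genes had a negative and 4 a positive log2 fold change, and the median was -0.35 against -0.03 for all genes tested. Of the 28, 8 had an unadjusted p under 0.05 on the lower side and 1 on the higher side, where 8.25% and 2.75% of all genes did. All 8 were H2A genes. Hist1h2an had a median of 0.293 RPKM in X10 tumors and 0.878 in vehicle tumors (log2 fold change -0.69, adjusted p = 0.171), and Hist1h2ag had 0.499 and 1.08 RPKM (log2 fold change -0.69, adjusted p = 0.225). The member on the higher side was Hist3h2a, an H2A gene outside the large cluster (log2 fold change 0.36, adjusted p = 0.349). H2B, H3, H4 and H1 members were between -0.44 and 0.27 and none had an unadjusted p under 0.05. Because the H2A genes share so much sequence, these members are not independent, and the libraries were poly(A) selected. The list's median was -0.34 without the 6 later tumors.

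Id3 (chr4:136143497-136145755, plus strand) was called as well. It stood at 60.5, 68.5, 252.0, 57.2, 42.4, 43.6, 50.1, 64.7, 42.6 and 60.2 RPKM in X10_95, X10_100, X10_105, X10_107, X10_111, X10_113, X10_115, X10_116, X10_118 and X10_120, and vehicle tumors ranged from 93.0 to 350.7 with a median of 157.6. All X10 tumors but X10_105 were below every vehicle tumor, and X10_105 was above all but 1. The means were 74.2 ± 63.2 and 183.0 ± 80.04 RPKM (SD, n = 10 each; log2 fold change -1.42, SE 0.27, limma adjusted p = 0.0215). Without X10_105 the log2 fold change was -1.64 (adjusted p = 0.000337). Without the 6 later tumors, X10_105 was 1 of the 4 left and the log2 fold change was -0.93 (unadjusted p = 0.0136, adjusted p = 1.00). Over 20 other settings the log2 fold change stayed between -1.75 and -0.93. With log2 library size as a covariate the adjusted p was 0.180. It ran from 0.000337 to 1.00 over 20 other settings, and Id3 was called in 15.

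The relatives of Id3 did not pass the test. Id1, another inhibitor of E proteins and a BMP target, had a median of 17.3 RPKM in X10 tumors and 26.4 in vehicle tumors (log2 fold change -0.55, 95% interval -1.104 to 0.01, adjusted p = 0.461). Id2 was at 0.21 (adjusted p = 0.693) and Id4 at -0.49 (adjusted p = 0.717). The E proteins were at -0.19 for Tcf3, -0.06 for Tcf4 and 0.15 for Tcf12, with adjusted p-values of at least 0.672, and the values of Tcf3 and Tcf4 changed sign under other settings. In the list of 29 Id and BMP pathway genes tested, Id3 alone was called, 11 had a positive and 18 a negative log2 fold change, and the median was -0.13. With log2 library size as a covariate 14 were positive and the median was -0.07. On the lower side 4 of the 29 had an unadjusted p under 0.05, against 8.25% of all genes. Besides Id3 these were Smad6, an inhibitory SMAD that BMP signaling induces (median 5.95 against 12.7 RPKM, log2 fold change -0.95, adjusted p = 0.244), Atoh8, a helix-loop-helix factor (-0.65), and Bmp6, a BMP ligand (-0.68, both with adjusted p = 0.440). Smad6 overlapped widely between groups, at 3.19 to 14.0 RPKM in X10 tumors and 3.00 to 32.5 in vehicle tumors.

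Pprc1 (chr19:46044886-46072915, plus strand) had the smallest difference of the called genes. X10 tumors held 85.0 to 148.9 RPKM (median 122.8) and vehicle tumors 134.8 to 286.7 (median 157.8), and 8 X10 tumors were below every vehicle tumor. The log2 fold change was -0.51 (SE 0.11, limma adjusted p = 0.0473), close to the limit, and it was -0.58 without the 6 later tumors (adjusted p = 0.701). Pprc1 was called in 9 of 20 other settings, with adjusted p-values from 0.0304 to 0.701. The next gene in rank, the pseudogene Gm5422, chosen here after its value was seen, had an adjusted p of 0.0504. The number called depended on the setting. It was 4 (0.0273%) with genes annotated as pseudogenes left out, 4 (0.0239%) with only X10 and vehicle tumors in the fit, 1 (0.00598%) with log2 library size or with the processed pseudogene score as a covariate, and 24 (0.0675%) with all genes that had a nonzero value. Without the 4 earlier X10 tumors it was 579 (3.46%).

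**Figure D2:**
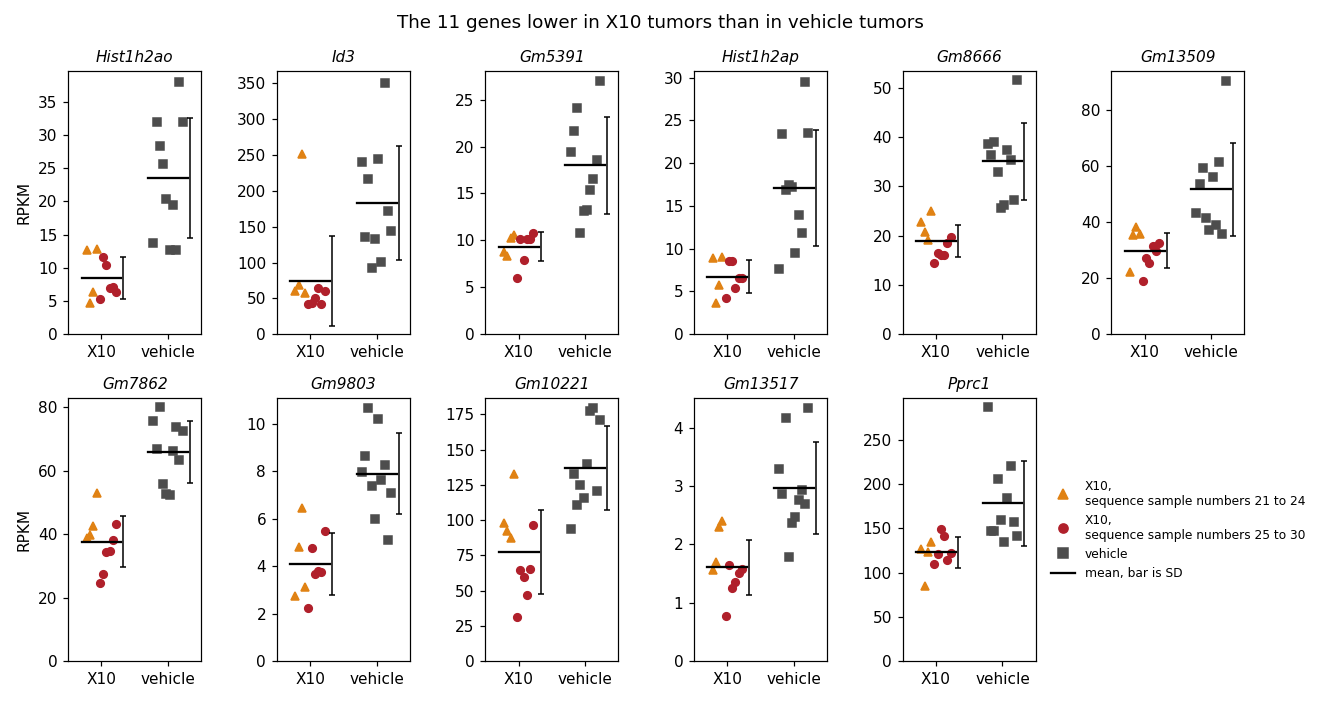
RPKM of the 11 genes called in X10 against vehicle tumors, with 1 point per tumor, the group mean as a line and the SD as a bar (n = 10 each). Hist1h2ao lies at 4.71 to 12.9 RPKM in X10 tumors and 12.65 to 38.0 in vehicle tumors, and the Id3 panel shows X10_105 at 252.0 RPKM above the other X10 tumors.

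The 7 copies were lower by similar amounts. Gm8666 was the only called gene whose groups did not overlap, at 14.4 to 25.1 RPKM in X10 tumors (median 18.8) and 25.7 to 51.6 in vehicle tumors (median 35.9; log2 fold change -0.86, SE 0.17, adjusted p = 0.0215). Of all genes tested, 2 had every X10 tumor below every vehicle tumor (0.0120%). The other, Gm15267, was not called and is named here after its values were seen. None had every X10 tumor above every vehicle tumor. Gm7862, the other Hmgn1 copy, ranged from 24.8 to 52.8 RPKM against 52.2 to 80.03 (log2 fold change -0.81, adjusted p = 0.0215). Gm10221 ranged from 31.7 to 132.5 RPKM against 93.6 to 179.1 (log2 fold change -0.89, adjusted p = 0.0246).

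Gm10221 followed the split within the X10 group. The earlier X10 tumors held 87.1 to 132.5 RPKM and the later ones 31.7 to 96.5, and without the later ones the log2 fold change was -0.40. Gm5391, at 5.95 to 10.8 RPKM against 10.8 to 27.0 in vehicle tumors, did not: the earlier tumors held 8.30 to 10.5 RPKM, and the log2 fold change was -0.88 over all X10 tumors (adjusted p = 0.0215) and -0.85 without the later ones. Gm9803 was at -0.89 and -0.85, Gm8666 at -0.86 and -0.64, Gm7862 at -0.81 and -0.59, Gm13509 at -0.76 and -0.62, and Gm13517 at -0.72 and -0.46. Over the 1930 processed pseudogenes tested, the median log2 fold change was -0.23, with 1551 below 0, against a median of -0.01 over 13520 protein-coding genes. Without the 6 later tumors the pseudogene median was 0.01, and 994 were above 0. The part of the library share in these values cannot be read from tumors that the share itself chose. With the processed pseudogene score as a covariate none of the 7 copies was called, and all were below 0, from -0.53 for Gm13517 (adjusted p = 0.238) to -0.69 for Gm9803 (adjusted p = 0.186).

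The coding genes nearest to the copies had smaller differences over all X10 tumors, and none was called. Pam16 was at -0.67 (adjusted p = 0.136) beside -0.89 for Gm9803, and Atp5l at -0.48 (adjusted p = 0.244) beside -0.89 for Gm10221. Ap2m1 was at -0.47 (adjusted p = 0.164), Ranbp1 at -0.47 (adjusted p = 0.277), Eif4g1 at -0.34 (adjusted p = 0.372) and Hmgn1 at -0.22 (adjusted p = 0.594). Without the 6 later tumors the gaps were mostly narrower, with Hmgn1 at -0.52, Ranbp1 at -0.76, Ap2m1 at -0.61 and Eif4g1 at -0.67, the last below its copy Gm13517. Without the 4 earlier tumors, Atp5l was called at -0.70 (limma adjusted p = 0.0142) and Pam16 at -0.68 (adjusted p = 0.0387). Hmgn1, Ranbp1, Ap2m1 and Eif4g1 were not called there. Gm10221 held 41.8% of the reads of its pair with Atp5l in X10 tumors and 48.3% in vehicle tumors, whereas Gm8666 held 1.24% and 1.96% of its pair with Hmgn1. A read from an identical stretch can come from either gene of a pair, so these differences are uncertain as differences of a single gene.

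**Figure D3:**
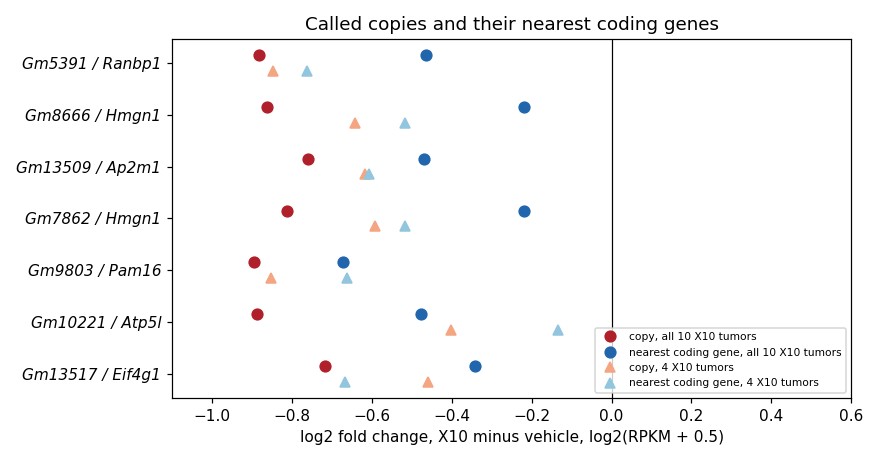
Log2 fold change, X10 minus vehicle, of the 7 called copies and of the coding gene nearest to each in sequence, over all 10 X10 tumors (circles) and without the 6 later ones (triangles). Over all X10 tumors each copy is further below 0 than its coding gene, -0.89 for Gm10221 and -0.48 for Atp5l, while without the later tumors Gm13517 is at -0.46 and Eif4g1 at -0.67.

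No gene was called as higher in X10 tumors. Without the 6 later X10 tumors 0 genes were called in limma, and 744 (4.45%) had an unadjusted p under 0.05. Over all X10 tumors 1841 genes (11.0%) did, 1381 lower (8.25%) and 460 higher (2.75%). The protein-coding genes next in rank on the lower side were Usb1, which trims U6 RNA (log2 fold change -0.44, adjusted p = 0.0702), Gipc1, a PDZ adaptor that binds cargo receptors (-0.56, adjusted p = 0.0979), and Vps37c, a subunit of the ESCRT-I sorting complex (-0.40, adjusted p = 0.122). Usb1 ranged from 25.3 to 32.2 RPKM in X10 tumors and from 25.7 to 49.3 in vehicle tumors, and 9 vehicle tumors were above every X10 tumor.

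Among protein-coding genes on the higher side, the smallest p-values belonged to Asz1, a germ cell gene that acts in the piRNA pathway (log2 fold change 1.51, adjusted p = 0.141), Spata6 (0.66, adjusted p = 0.145), Zadh2, a prostaglandin reductase (0.64, adjusted p = 0.162), and Cerk, the ceramide kinase (0.56, adjusted p = 0.164). Mtss1, an actin and membrane binding protein, had 0.70 (adjusted p = 0.201), Ankrd44 0.99 (adjusted p = 0.203), and Fam117b and Rlf both 0.41 (adjusted p = 0.225). Asz1 lay at 27.0 RPKM in X10_100, at 5.36 in X10_118 and at 3.77 in X10_95, at 0.144 to 1.47 in the other X10 tumors and at 0 to 0.533 in vehicle tumors. Its mean of 4.09 ± 8.25 RPKM in X10 tumors therefore rested on few tumors. Spata6 was more even, at 21.9 to 53.4 RPKM in X10 tumors and 6.78 to 36.1 in vehicle tumors.

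The receptors of X10 and the genes of their pathway were examined next, from lists chosen by function. Igf1r ranged from 3.24 to 13.2 RPKM in X10 tumors (median 5.57) and from 3.25 to 14.4 in vehicle tumors (median 5.66), and the log2 fold change was -0.12 (95% interval -0.53 to 0.29, adjusted p = 0.862). Insr had medians of 7.92 and 7.88 RPKM (log2 fold change 0.09, 95% interval -0.22 to 0.41, adjusted p = 0.869). Of the 54 genes of INSR and IGF1R signaling described here, 0 were called in limma. On the lower side 2 had an unadjusted p under 0.05, where 8.25% of all genes did. The median was -0.04, and it was 0.03 after quantile normalization. The 2 genes were Hras (log2 fold change -0.40, adjusted p = 0.361) and Akt2 (-0.22, adjusted p = 0.411). Of 13 IGF binding protein genes and related genes, 10 were below 0 and the median was -0.31, or -0.10 with log2 library size as a covariate and 5 above 0. In limma 0 were called, and 1 had an unadjusted p under 0.05 on the lower side, where 8.25% of all genes did. It was Igf2bp2, an RNA-binding protein that binds Igf2 mRNA (-0.47, adjusted p = 0.450).

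Genes downstream of ERK did not pass either. Among 29 immediate early genes, 0 were called in limma. On the higher side 2 had an unadjusted p under 0.05 and on the lower side 0, where 2.75% and 8.25% of all genes did. The list leaned the other way, with 18 below 0 and a median of -0.09, which was 0.04 without the 6 later tumors. The 2 genes were Egr2 (log2 fold change 0.61, adjusted p = 0.417) and Klf10 (0.26, adjusted p = 0.445). Among 17 ERK feedback and ETS target genes, 0 were called in limma and 1 had an unadjusted p under 0.05 on the higher side, where 2.75% of all genes did. It was Dusp6, a phosphatase of ERK (0.44, adjusted p = 0.388, median 56.7 against 41.6 RPKM).

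Metabolic and growth lists held 0 genes called in limma over all X10 tumors. Without the 4 earlier tumors, where 3.46% of all genes were called, 4 nuclear oxidative phosphorylation genes were called, 2 of them higher. In that setting 1 DNA replication gene, 3 ribosomal protein genes and 1 breast cancer driver gene were also called. Of 25 glycolysis genes, 16 were above 0, or 19 after upper quartile scaling, and the median was 0.15 (0.28 without the 6 later tumors). On the higher side 1 had an unadjusted p under 0.05, where 2.75% of all genes did. It was Pdk1, the kinase that turns off pyruvate dehydrogenase (log2 fold change 0.68, adjusted p = 0.335). Its value was highest in X10_100, at 91.3 RPKM. Of 76 nuclear genes of oxidative phosphorylation, 52 were below 0 and the median was -0.09, but 36 were above 0 after quantile normalization (median -0.01). Of the 76, 9 had an unadjusted p under 0.05 on the lower side and 2 on the higher side, where 8.25% and 2.75% of all genes did. The smallest p-values were those of Ndufv1, a complex I subunit (-0.41, adjusted p = 0.195), Atp5l, Atp5c1, another ATP synthase subunit (0.29, adjusted p = 0.283), and Cox4i1, a complex IV subunit (-0.36, adjusted p = 0.294). The median was -0.01 without the 6 later tumors. Of the 13 mitochondrially encoded genes, 12 were above 0 and the median was 0.23, with mt-Nd3 having the smallest p-value (0.48, adjusted p = 0.327).

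Of 30 DNA replication genes, 25 were below 0 and the median was -0.06, but 17 were below 0 after quantile normalization (median -0.03). Of the 30, 4 had an unadjusted p under 0.05, all on the lower side, where 8.25% of all genes did. Cdt1, which licenses replication origins, ranged from 7.87 to 12.6 RPKM in X10 tumors and from 10.2 to 24.7 in vehicle tumors (log2 fold change -0.51, adjusted p = 0.137), and 7 vehicle tumors were above every X10 tumor. Chaf1b, a subunit of the histone chaperone CAF-1, was at -0.48 (adjusted p = 0.256), Cdc45 at -0.39 (adjusted p = 0.388) and Gins2 at -0.35 (adjusted p = 0.347), the last pair belonging to the replicative helicase. Without the 6 later tumors the median of the list was -0.37. Of 28 mitosis genes, 13 were above 0, or 18 after upper quartile scaling, and Bub1, a spindle checkpoint kinase, had the smallest p-value (0.47, adjusted p = 0.431). The median of the mitosis list was -0.02 over all X10 tumors, 0.03 after quantile normalization, and -0.24 without the 6 later tumors.

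Of 85 cytosolic ribosomal protein genes, 62 were below 0 with a median of -0.12, and 33 were above 0 after upper quartile scaling (median -0.06), but without the 6 later tumors 73 were above 0 with a median of 0.22. The smallest p-values were those of Rpl30 (0.35, adjusted p = 0.292), Rpsa (-0.45, adjusted p = 0.410) and Rpl18 (-0.39, adjusted p = 0.422). Of 23 cholesterol genes, 16 were above 0 with a median of 0.08. On the higher side 2 had an unadjusted p under 0.05, where 2.75% of all genes did. They were Stard4 (0.62, adjusted p = 0.399) and Hsd17b7 (0.62, adjusted p = 0.450). The count above 0 was 9 and the median -0.05 without the 6 later tumors. Fatty acid synthesis genes (18 tested, median 0.04) and unfolded protein and ATF4 genes (22 tested, median -0.07) were near the median of all genes. Their smallest p-values were those of Acsl3 (0.31, adjusted p = 0.534) and Dnajb9 (0.40, adjusted p = 0.379). Of 21 breast cancer driver genes, 13 were above 0 with a median of 0.11, which was -0.05 without the 6 later tumors. Of the 21, 3 had an unadjusted p under 0.05, all on the lower side, where 8.25% of all genes did. They were Erbb2, the HER2 receptor (-0.72, adjusted p = 0.280), Runx1 (-0.28, adjusted p = 0.375) and Cdkn2a, which encodes p16 and p19ARF (-0.67, adjusted p = 0.392). Trp53 was at 0.14 (adjusted p = 0.911) and Ezh2, a histone methyltransferase, at -0.22 (adjusted p = 0.646).

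**Figure D4:**
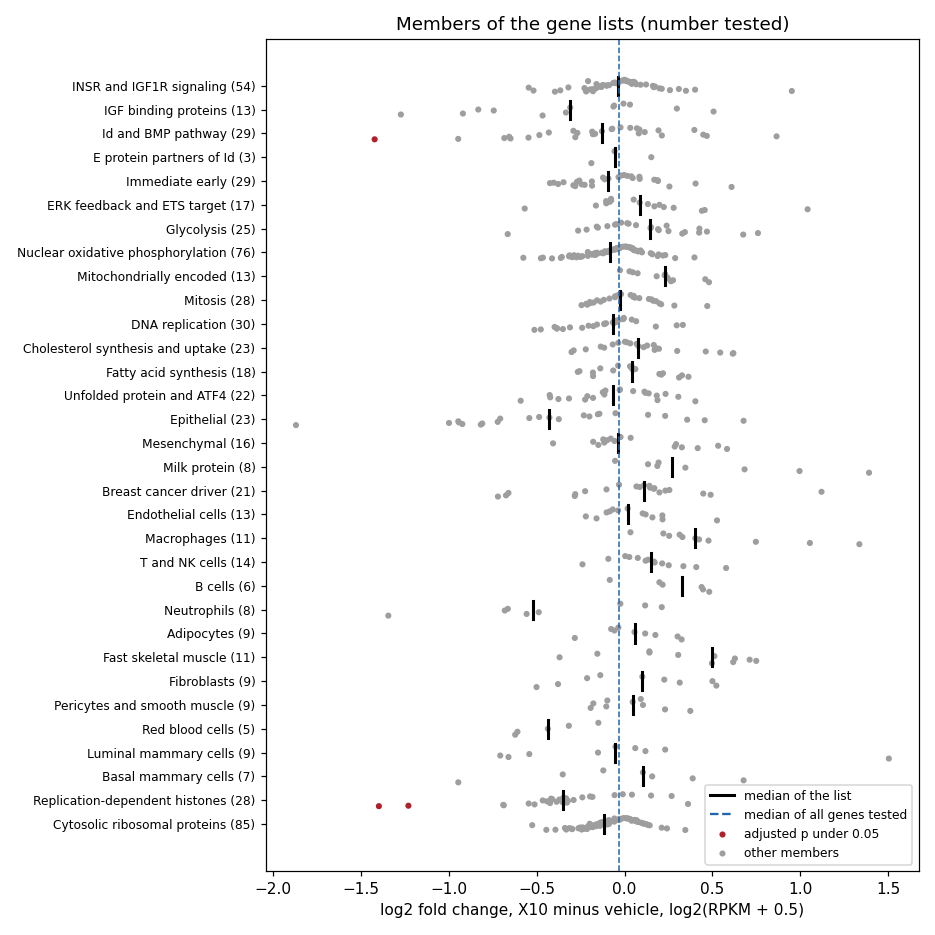
Log2 fold change, X10 minus vehicle, of each tested member of the gene lists, with the list median as a bar and the median of all genes tested (-0.03) as a dashed line. The called members are Id3 and the H2A genes Hist1h2ao and Hist1h2ap, and the histone median lies at -0.35.

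Markers of mesenchymal and epithelial cells varied widely in both groups. Vim, an intermediate filament of mesenchymal cells, ranged from 1480.1 to 5762 RPKM in X10 tumors and from 1094 to 4769 in vehicle tumors (log2 fold change 0.42, adjusted p = 0.457). Cdh1, or E-cadherin, ranged from 2.24 to 49.5 RPKM and from 1.33 to 106.0 (log2 fold change 0.13, adjusted p = 0.959), and its sign changed with log2 library size as a covariate. The lowest Vim and the highest Cdh1 of each group were in the same tumor, X10_105 and Untreated_174. Of 23 epithelial genes, 18 were below 0 with a median of -0.43, and Krt7 had the smallest p-value (-1.87, adjusted p = 0.536). Of 16 mesenchymal genes, 7 were above 0, or 13 with log2 library size as a covariate (median -0.04 and 0.16), and Zeb2, a repressor of Cdh1, had the smallest p-value (0.58, adjusted p = 0.336). The epithelial median was -0.06 without the 6 later tumors and -0.81 with log2 library size as a covariate. Of 8 milk protein genes, 7 were above 0 (median 0.27), or 4 with that covariate (median -0.0015), and Csn3 was at 1.39 (adjusted p = 0.572). The 9 luminal genes had a median of -0.05, with Areg at 1.504 (adjusted p = 0.480), and the 7 basal genes one of 0.10, with Krt14 at -0.95 (adjusted p = 0.775).

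Markers of other cells were compared by list, and 0 were called in limma. All 11 macrophage genes were above 0, with a median of 0.40, and 3 had an unadjusted p under 0.05 on the higher side, against 2.75% of all genes. F13a1, the A chain of coagulation factor XIII, ranged from 9.62 to 58.6 RPKM in X10 tumors (median 23.9) and from 2.87 to 42.0 in vehicle tumors (median 9.57; log2 fold change 1.34, SE 0.42, adjusted p = 0.236). Mrc1, the mannose receptor, had medians of 66.5 and 34.8 RPKM (1.05, adjusted p = 0.314), and Cd163, a hemoglobin scavenger receptor, 1.86 and 0.809 RPKM (0.75, adjusted p = 0.446). Csf1r and Cd68, expressed by most macrophages, were at 0.22 (adjusted p = 0.812) and 0.03 (adjusted p = 0.980). The summed RPKM of the list was 677 to 2001 in X10 tumors and 328 to 2909 in vehicle tumors, so the groups overlapped throughout. The median was 0.33 without the 6 later tumors, with all 11 still above 0.

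The other marker lists overlapped as well. Neutrophil genes had a median of -0.52 (8 tested, 6 below 0, or 5 after quantile normalization), with summed RPKM of 37.6 to 5155 in X10 tumors and 297 to 6074 in vehicle tumors, and Mmp9 at -1.34 (adjusted p = 0.580). Endothelial genes had a median of 0.02 (13 tested, -0.10 without the 6 later tumors; summed 227 to 408 against 176 to 345), with Flt1, a VEGF receptor, at 0.53 (adjusted p = 0.404). Fibroblast genes had a median of 0.10 (9 tested, -0.09 without the 6 later tumors; summed 6539 to 14542 against 2857 to 32278), with Col1a1 at -0.50 (adjusted p = 0.682). T and NK cell genes had a median of 0.15 (14 tested), with Thy1 at 0.58 (adjusted p = 0.594), and pericyte and smooth muscle genes one of 0.05 (9 tested), with Abcc9 at 0.37 (adjusted p = 0.555).

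Some lists varied mainly between single tumors. B cell genes had a median of 0.33 (6 tested), which was 1.05 without the 6 later tumors and 0.91 with log2 library size as a covariate, and their summed RPKM reached 1577 in X10 tumors and 216 in vehicle tumors from floors of 0.501 and 0.883. Pax5, the B lineage factor, was at 18.4 RPKM in X10_105 and at 0.48 as a log2 fold change (adjusted p = 0.702). Fast skeletal muscle genes had a median of 0.50 (11 tested), with summed RPKM from 7.52 to 3403 in X10 tumors and from 6.59 to 4299 in vehicle tumors, and Myh2 at 0.50 (adjusted p = 0.869). The median was 1.87 without the 6 later tumors. Adipocyte genes had a median of 0.06 (9 tested, 5 above 0), or -0.27 without the 6 later tumors (2 above 0), with Pparg at 0.32 (adjusted p = 0.651), and red blood cell genes one of -0.44 (5 tested), with Hba-a1 at -0.62 (adjusted p = 0.682). With the epithelial score, the endothelial score, or the muscle and adipocyte scores as covariates, 13, 10 and 10 genes were called. The part of macrophage, neutrophil and B cell genes in the called genes was not tested.

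A stretch of chromosome 6 around Met, the hepatocyte growth factor receptor, held very abundant transcripts in some tumors of each group, and it was chosen for description after these values were seen. Capza2, an actin capping protein, or Cav1, the main protein of caveolae, was the most abundant gene in 7 of 10 X10 tumors and 2 of 10 vehicle tumors, and in 0 insulin, 2 glargine and 3 IGF1 tumors. The collagen gene Col1a1 led in 6 vehicle tumors and 2 X10 tumors. Capza2 (chr6:17636234-17666972) ranged from 250.5 to 22082 RPKM in X10 tumors (median 6563) and from 355.5 to 8504 in vehicle tumors (median 2182; log2 fold change 1.37, 95% interval -0.11 to 2.86, adjusted p = 0.494). Cav1 (chr6:17306335-17341452) had medians of 5882 and 2028 RPKM (1.20, adjusted p = 0.554). Met itself (chr6:17463800-17573980) ranged from 21.8 to 2086 RPKM (median 1229.7) against 23.7 to 1612 (median 520.1; log2 fold change 1.12, 95% interval -0.59 to 2.83, adjusted p = 0.645). Met was above 300 RPKM in 9 X10 tumors and 7 vehicle tumors, and in 7 insulin, 9 glargine and 7 IGF1 tumors.

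Median levels along this stretch dropped at its ends. Tes (chr6:17065149-17105828) and Cav2 (chr6:17281185-17289115), also chosen after their values were seen, had medians of 586 and 1208 RPKM in X10 tumors and 109.9 and 339 in vehicle tumors (log2 fold changes 1.21 and 1.09, adjusted p = 0.683 and 0.638). Tfec, on the far side of Tes, stayed between 1.98 and 8.45 RPKM in all 20 tumors. Past St7 (medians 114 and 56.9 RPKM), Wnt2 had medians of 3.63 and 2.09 RPKM. Single tumors differed from these medians beyond St7: Wnt2 was at 136.2 RPKM in Untreated_187, and Cttnbp2, chosen after its value was seen, was at 222.7 in X10_100 and 32.3 in Untreated_187. Asz1, the protein-coding gene with the smallest p-value on the higher side, lies between Wnt2 and Cttnbp2 at chr6:18050964-18109061, with medians of 0.9725 and 0.1945 RPKM, and its highest value was also in X10_100. X10_105 was low along the stretch, with Met at 21.8, Capza2 at 250.5 and Cav1 at 226 RPKM, the lowest X10 values of each. X10_120 was lower for Tes (67.8 against 76.4 RPKM) and Cav2 (49.1 against 55.5), though its Met was at 688. Low values were not particular to X10_105: Untreated_195 and Untreated_197 had Met at 39.0 and 23.7 RPKM and Capza2 at 367 and 355. The most abundant gene of X10_105 was the immunoglobulin light chain gene Igkc, at 37119.8 RPKM.

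Naa38 (chr6:18848579-18855751), named Lsm8 in the GENCODE annotation and chosen after its value was seen, showed the reverse. It ranged from 14.0 to 181.1 RPKM in X10 tumors (median 28.1) and from 28.6 to 2459 in vehicle tumors (median 211.4; log2 fold change -2.62, SE 0.73, adjusted p = 0.162). Of the vehicle tumors 6 were above every X10 tumor, and the 4 others lay at 28.6 to 44.5 RPKM. Its means were 88.6 RPKM in insulin, 74.8 in glargine and 100.1 in IGF1 tumors, beside 45.0 in X10 and 610.2 in vehicle tumors.

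**Figure D5:**
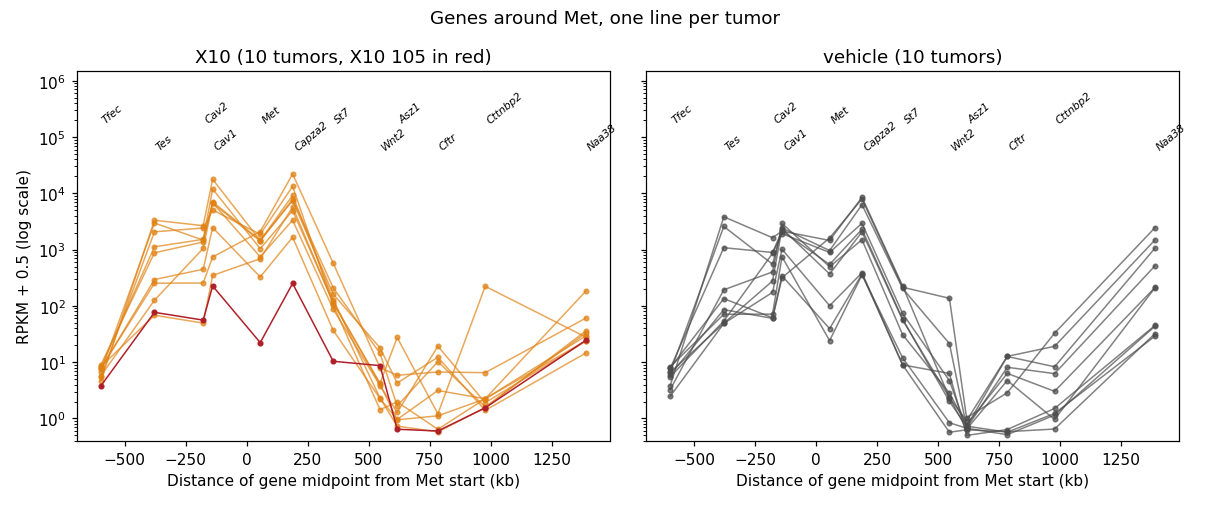
RPKM + 0.5 on a log scale of 12 genes around Met, by distance of the gene midpoint from the start of Met in kb, with 1 line per tumor in X10 (left) and vehicle (right) tumors. Capza2 reaches 22082 RPKM in X10 tumors and 8504 in vehicle tumors, X10_105 in red stays low at 250.5, and Naa38 reaches 181.1 in X10 tumors and 2459 in vehicle tumors.

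The 11 called genes were then set beside the other injected compounds. X10 and glargine are insulin analogues and IGF1 is the natural ligand of IGF1R. The paper states that the compounds had equal glycemic effects at its doses, while their mitogenic potential differed. Since the doses themselves are not given in the sources used here, the values stand side by side without a claim at matched dose. All comparisons with vehicle share the same 10 vehicle tumors, and the 11 genes were chosen because X10 tumors were low against them, so the values below are a description and no test of these genes. Against vehicle, the log2 fold changes of the 11 genes had a median of -0.88 for X10, -0.42 for insulin, -0.46 for IGF1 and -0.13 for glargine. None of the 11 was called for insulin, IGF1 or glargine against vehicle, where 0, 1 and 0 of all genes were (0%, 0.00598% and 0%), and 1865 (11.1%), 1479 (8.84%) and 1043 (6.23%) had an unadjusted p under 0.05.

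Direct comparisons of X10 with each compound were made in the same fit, over 3 pairs and adjusted over all genes within a pair. The same choice of genes with low X10 values favors a difference here too, and nothing is read from these counts against the share of all genes. Against glargine 6 of the 11 were called, all copies (Gm10221, Gm13509, Gm13517, Gm5391, Gm7862 and Gm9803), where 1.78% of all genes were called. Against insulin 0 of the 11 were called (0.102% of all genes) and 8 had an unadjusted p under 0.05, where 11.3% of all genes did. Against IGF1 0 of the 11 and 0 of all genes were called in limma, and 9 of the 11 had an unadjusted p under 0.05, where 11.7% of all genes did.

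The H2A genes and Id3 did not separate X10 from insulin. Hist1h2ao averaged 8.46 ± 3.13 RPKM in X10, 9.83 ± 2.49 in insulin, 12.1 ± 3.36 in glargine, 14.4 ± 6.51 in IGF1 and 23.5 ± 9.06 in vehicle tumors (SD, n = 10 each). The log2 difference of X10 from insulin was -0.24 (95% interval -0.71 to 0.22, adjusted p = 0.743), and those from glargine and IGF1 were -0.53 (95% interval -0.999 to -0.06, adjusted p = 0.324) and -0.66 (95% interval -1.13 to -0.19, adjusted p = 0.344). Hist1h2ap differed from insulin by 0.01 (95% interval -0.47 to 0.50, adjusted p = 0.991). Id3 averaged 74.2 ± 63.2 RPKM in X10, 84.9 ± 26.5 in insulin, 104.8 ± 20.1 in glargine, 114.7 ± 67.7 in IGF1 and 183.0 ± 80.04 in vehicle tumors. X10 differed from insulin by -0.37 (95% interval -0.91 to 0.18, adjusted p = 0.646), from glargine by -0.72 (95% interval -1.26 to -0.17, adjusted p = 0.199) and from IGF1 by -0.65 (95% interval -1.19 to -0.10, adjusted p = 0.371). These intervals leave room for differences in either direction from insulin, so the groups were not shown to be alike.

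Pprc1 had another order. It averaged 123 ± 17.8 RPKM in X10, 159.9 ± 18.2 in insulin, 149 ± 20.4 in glargine and 152 ± 24.8 in IGF1 tumors, with 178.2 ± 47.6 in vehicle tumors. X10 was below insulin by a log2 difference of -0.39 (95% interval -0.61 to -0.16, adjusted p = 0.129), below glargine by -0.28 (95% interval -0.50 to -0.06, adjusted p = 0.227) and below IGF1 by -0.31 (95% interval -0.53 to -0.09, adjusted p = 0.345). Gm10221 differed most, at 77.4 ± 29.5 RPKM in X10 and 157 ± 39.3 in glargine tumors (log2 difference -1.07, 95% interval -1.44 to -0.71, adjusted p = 0.00667), and its levels followed the split of the X10 libraries described above.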

How the data were processed

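The authors deposited 1 table of RPKM values for 37701 genes and 50 tumors. Per the labels and methods, poly(A)-selected RNA was sequenced on the Ion Proton, reads were aligned to GRCm38 with TopHat2 (version 2.0.10) and Bowtie2 and counted per gene with HTSeq (version 0.6.1), and the RPKM table was made with DEXSeq. The authors tested counts with DESeq2 (version 1.2.10), which was not run here because the table holds RPKM. Reads were recovered from the RPKM steps for 97.7% of the genes tested. As 1 of the other settings, limma voom was fitted to these reads, and 11 genes were called. Depth was recovered from the table: after scaling to 100 M reads and rounding to whole numbers, 93.4% to 99.3% of low values in each of the 50 tumors equalled a rounded multiple of 1 read's worth exactly. Chance alone would give a share near the library size divided by 100 M reads. No column of an unlisted sample was present.

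The 16733 genes whose RPKM averaged 0.5 or more over the 50 tumors were fitted on log2(RPKM + 0.5) with limma (version 3.58.1, R 4.3.3), with all 5 groups, an intensity trend and Benjamini-Hochberg adjustment over all genes. Single values were compared with two-sided permutation tests of 100000 resamples (scipy 1.17.1). The analysis scripts were tested on simulated data. Pairwise correlations of the 20 log2 profiles were 0.804 to 0.978, so no pair was identical. Transcripts came from GENCODE M21, promoters from RefSeq, and copies were found with blastn (version 2.17.0).

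Named genes were every called gene, the 8 protein-coding genes with the smallest p-value in each direction, up to 4 members of each list, the Id genes and their E protein partners, and Igf1r, Insr, Cdh1, Vim, Hras, Ezh2 and Trp53. The nearest coding genes of the copies and the genes around Met were added after values were seen. The comparison, the lists and these rules were chosen with earlier results of these data known, so no list gives independent support. Lists were described by counts and medians only, and 1 gene of the INSR and IGF1R signaling list is not reported here and stands in none of its counts. Alternatives changed the pseudocount, filter, normalization, covariates, weights, samples and model. Leaving out the 6 later or 4 earlier X10 tumors or X10_105 was added after seeing the data. The line between earlier and later tumors was drawn where the pseudogene share changed along the sequence sample numbers.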

Additional observations from a re-analysis of the deposited data

Results flagged for a closer look

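A single tumor lay far from the other 9 of its group on the log2(RPKM + 0.5) scale in 19 of 184 sets of values examined, by Dixon's gap ratio with a critical value of 0.466 for 10 tumors. Chance alone gives about 5% of such sets.

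X10_105 was the isolated tumor in 9 of them. It was the highest X10 tumor for Pax5 (gap ratio 0.902, 18.4 RPKM), Id3 (0.732, 252.0 RPKM), Atoh8 (0.632, 3.69 RPKM), Id4 (0.56, 5.97 RPKM), Hras (0.53, 83.3 RPKM) and Myh2 (0.527, 18.2 RPKM). It was the lowest for Met (0.592, 21.8 RPKM), Vim (0.588, 1480.1 RPKM) and Igf2bp2 (0.555, 31.8 RPKM). X10_100 was the lowest for Ezh2 (0.833, 17.0 RPKM) and the highest for Pdk1 (0.48, 91.3 RPKM).

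Among vehicle tumors, whose titles start with Untreated, Untreated_174 was the lowest for Spata6 (0.749, 6.78 RPKM) and Zeb2 (0.614, 7.56 RPKM) and the highest for Hras (0.509, 111.5 RPKM) and Gipc1 (0.478, 74.7 RPKM). Untreated_162 was the highest for Gins2 (0.584, 14.0 RPKM), Untreated_186 for Pax5 (0.576, 0.637 RPKM) and Untreated_195 for Cd163 (0.494, 9.18 RPKM), while Untreated_189 was the lowest for Runx1 (0.512, 9.27 RPKM).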

How the results depend on the processing

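No paired analysis was possible because the groups share no mouse numbers. The count of 11 called genes was 24 with all nonzero genes (12 higher, 12 lower), 19 with sample quality weights, 4 without pseudogenes (Hist1h2ao, Hist1h2ap, Id3, Gm9803), 4 with only X10 and vehicle tumors in the fit (Hist1h2ao, Gm5391, Gm8666, Gm7862), and 1, Hist1h2ao, with either log2 library size or the processed pseudogene score as a covariate. The remaining planned settings gave 8 to 13. Of the settings added after seeing the data, leaving out X10_105 gave 21, leaving out the 4 earlier X10 tumors 579 (474 of them lower), and leaving out the 6 later ones 0, with all genes (744 at an unadjusted p under 0.05) or without pseudogenes (663). The cause of these changes was not tested, and with 4 X10 tumors there are fewer samples. Each of the 11 genes was below 0 in every setting in which it was tested.

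The library size difference of -6.85 M reads was -8.55 by medians (p = 0.0642) and -2.46 without the 6 later tumors, where the pseudogene share difference turned to 0.1015 percentage points. Of the list medians, 1 moved by more than the SD of the list's median log2 level over X10 tumors, that of the breast cancer driver list, from 0.11 to -0.0514 without the 6 later tumors. Some larger moves without these tumors stayed within that SD, which was wider for those lists. They include cytosolic ribosomal proteins from -0.12 to 0.22, DNA replication from -0.06 to -0.37, fast skeletal muscle from 0.50 to 1.87, B cells from 0.33 to 1.05, epithelial genes from -0.43 to -0.06 and adipocytes from 0.06 to -0.27. Of 1875 values of named genes, 17 changed sign. These were Tcf3, X10 versus vehicle, at 0.0705, Rpl18, X10 versus vehicle, at 0.0784 and Igf1r, X10 versus vehicle, at 0.1252 without the 6 later tumors, each with and without pseudogenes; Insr, X10 versus vehicle, at -0.0517 and Hmgn1, X10 versus vehicle, at 0.0077 with quality weights; Cdh1, X10 versus vehicle, at -0.2731 with library size, -0.0206 with the pseudogene score and -0.1225 without X10_105; Tcf4, X10 versus vehicle, at 0.0140 with library size, 0.0061 after quantile normalization and 0.0041 after upper quartile scaling; Pax5, X10 versus vehicle, at -0.0024 without X10_105; and Myh2, X10 versus vehicle, at -0.0291 and Trp53, X10 versus vehicle, at -0.0660 without the 4 earlier tumors. None of these genes was called in the setting where its sign changed. Rpl18 was called at -0.71 without the 4 earlier tumors (limma adjusted p = 0.0307).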
